A study of Mus musculus with 45 samples.

Results

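The helper T lineage transcription factors are the genes that steer CD4+ T cells into their effector classes or hold them in the CD4 lineage. The set was given by name and holds 9 genes of the 55450 in the count table: Tbx21, Eomes, Runx3, Gata3, Rora, Zbtb7b, Runx1, Id2 and Id3. All 9 were found, each once. RNA was sequenced from lymphocytes sorted from the draining popliteal lymph nodes of mice immunised in the footpad with an emulsion of incomplete Freund's adjuvant, 50 µg of ovalbumin and 5 µg of lipopolysaccharide in 20 µl. Mice were 8 to 12 weeks old, of both sexes, and either S1PR4 KO (S1pr4tm1Dgen allele, backcrossed to C57BL/6) or WT littermates. CD4+ T cells were taken on day 6 as Tfh (PD1+ CXCR5+) and non-Tfh (PD1- CXCR5-) cells. B220+ B cells were taken on day 9 as GC B (GL7+ Fas+) and non-GC B (GL7- Fas-) cells. Each of the 8 groups had 6 libraries, except non-GC B WT with 5 and non-GC B KO with 4, which gave 45 libraries in all. Total counts per library ran from 26299429 to 45548215, with a median of 34188292. Levels are given as CPM, the counts divided by the scaled library total and brought to a common size, and n is the number of libraries.

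Tbx21 encodes T-bet, the defining factor of Th1 cells, and Eomes is its T-box relative in cytotoxic and memory cells. Gata3 defines Th2 cells, and Rora acts with its relative RORγt in Th17 cells. Zbtb7b encodes ThPOK, which holds thymocytes in the CD4 lineage, while Runx3 favours the CD8 lineage and Runx1 serves at many stages of lymphocyte development. Id2 and Id3 lack a DNA-binding domain and pair with E proteins, which keeps these from binding the E-box motif. In activated CD4+ T cells Id2 is known for its place in Th1 cells and Id3 for its place in Tfh cells. T-bet is also known in B cells.

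The S1pr4 gene itself followed the labels in every library. In Tfh WT it lay between 52.8 and 73.7 CPM with a median of 67.1, and in Tfh KO between 0.323 and 1.01 CPM. Non-Tfh WT libraries held 117 to 159 CPM, and non-Tfh KO libraries held 0.470 to 0.993 CPM. GC B WT libraries ranged from 17.7 to 37.5 CPM and GC B KO libraries from 0 to 0.115 CPM. The 5 non-GC B WT libraries held 89.0, 87.8, 81.8, 91.1 and 93.9 CPM, against 0.133, 0.160, 0.166 and 0.0306 CPM in the 4 KO libraries. No KO library reached the level of any WT library of its population.

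Markers of T cells, of B cells and, among the T cells, of the Tfh gate were highest in the groups so labelled. Pdcd1, the PD1 gene, lay between 536 and 953 CPM over both Tfh groups and between 7.57 and 57.8 CPM over both non-Tfh groups. Cxcr5 ranged from 717 to 1076 CPM in Tfh libraries and reached at most 34.8 CPM in non-Tfh libraries. Cd3e was at 616 CPM or more in T cell libraries and at most 0.947 CPM in B cell libraries. Summed over the 12 B cell markers, Tfh WT libraries held 1147 to 1487 CPM and Tfh KO libraries 927 to 1290 CPM, most of it from Ighm in each of these libraries. The same list summed to 1049 to 1357 CPM in non-Tfh WT, 890.0 to 1223 CPM in non-Tfh KO and 11181 CPM or more in every B cell library. The part of these markers in the results on Tfh cells was not tested beyond the fit with this list as a covariate.

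**Figure D1:**
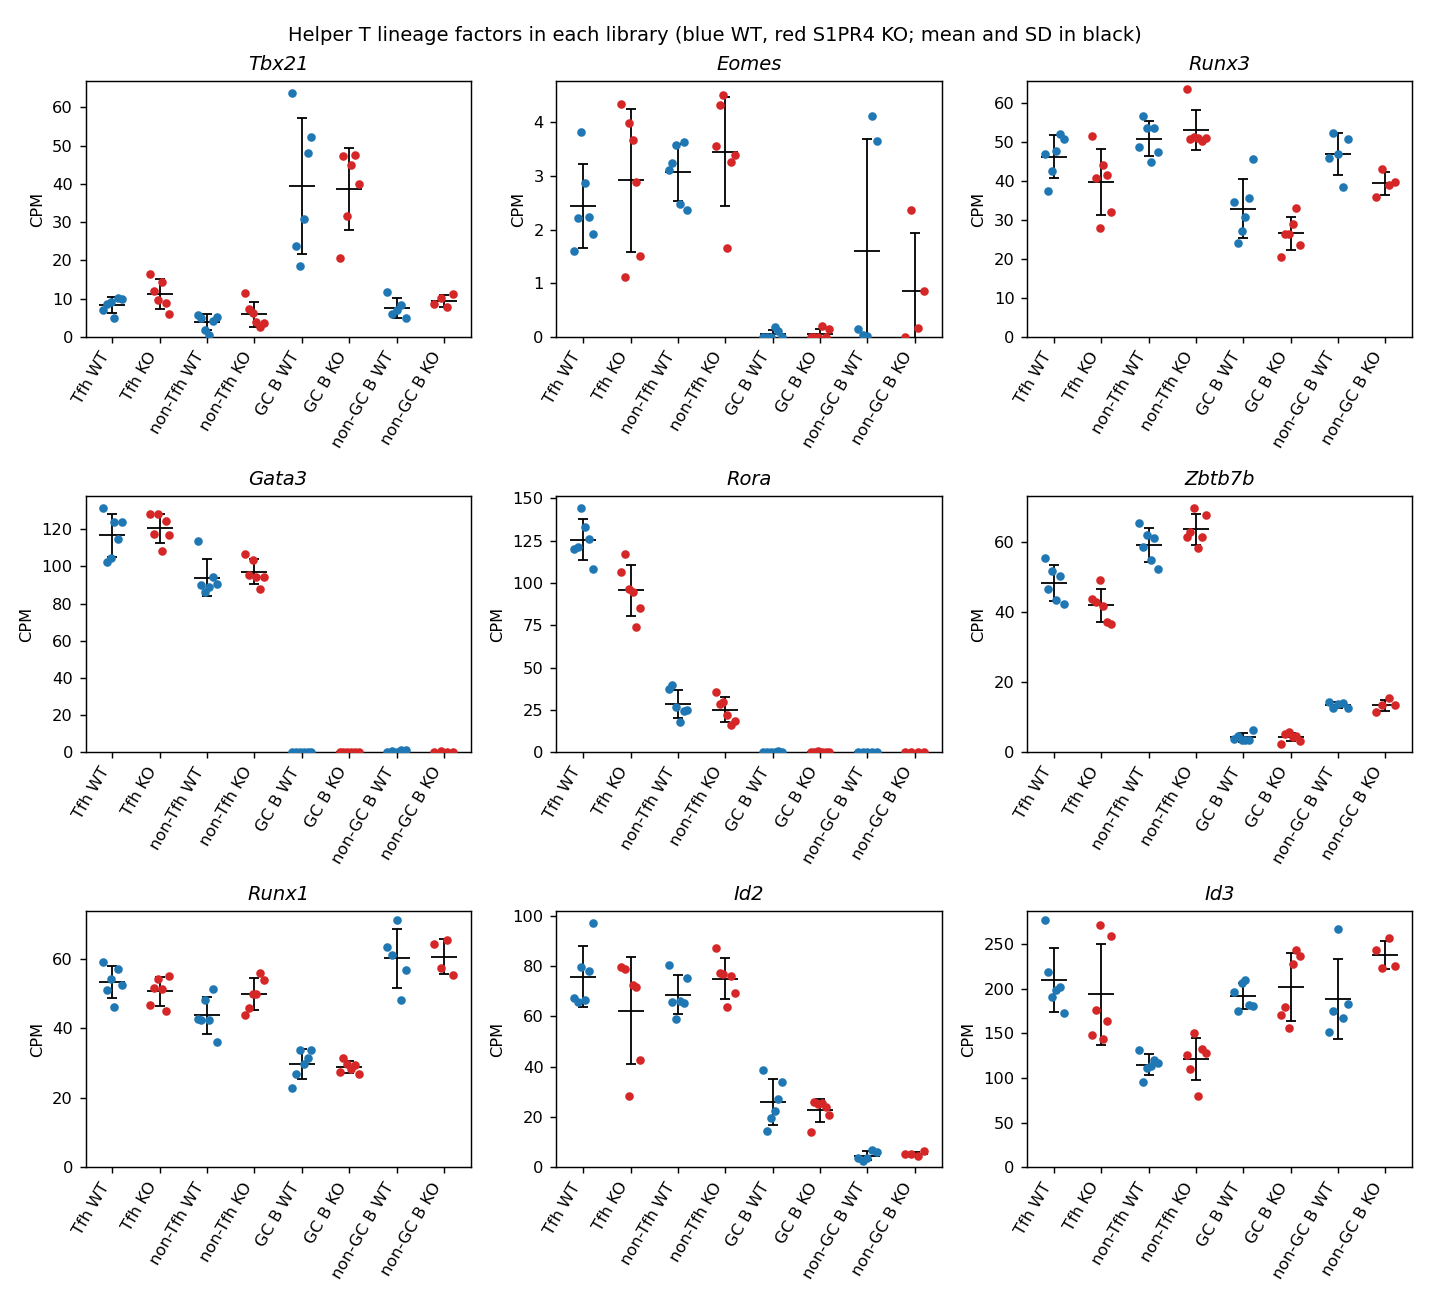
CPM of the 9 factors (vertical axis, linear, from 0) in each of the 45 libraries (points, blue for WT and red for S1PR4 KO), with the mean and SD of each group in black, bars ending at 0. Gata3 and Rora stand near 0 in B cell groups, while Tbx21 is highest in GC B cells at a mean of 39.5 CPM in WT.

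Among the Th1 and cytotoxic factors, Tbx21 was highest outside the T cells. Its 6 GC B WT libraries lay between 18.4 and 63.7 CPM with a median of 39.4, and the GC B KO libraries between 20.6 and 47.5 CPM with a median of 42.4. In Tfh WT it ran from 4.93 to 10.2 CPM (median 8.85) and in Tfh KO from 6.03 to 16.5 CPM (median 10.8). The lowest values were in non-Tfh WT, at 0.604 to 5.81 CPM, where replicates 3 and 4 fell below the other 4 at 1.94 and 0.604 CPM. Replicate 4 was also the lowest of its group in Pdcd1 (7.57 against 15.1 to 30.4 CPM), in Foxp3, the factor of regulatory T cells (71.7 against 133 to 165 CPM), in the sum of the 5 regulatory T cell markers (332 against 493 to 575 CPM) and in Rora, and the part of these markers in its Tbx21 level was not tested. In the order of group means both GC B groups came first and overlapped each other, and neither overlapped the next group, Tfh KO at 11.2 CPM. From there down, through non-GC B KO, Tfh WT, non-GC B WT and non-Tfh KO to non-Tfh WT at 3.79 CPM, each group overlapped the next. Tbx21 lies on the minus strand at chr11:97098071-97115331 (mm10), and no other gene of the annotation used overlaps it.

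The promoters of the factors with the largest changes within a cell lineage are shown, because Id2 and Id3 act on proteins that bind the E-box. They were taken from RefSeq (GRCm38.p6), which had an entry for all 9 factors. Capitals mark matches to the E-box CANNTG, which reads as CANNTG on the other strand as well. The windows are chr11:97115282-97115581 (minus strand) for Tbx21, chr12:25096043-25096342 (minus strand) for Id2 and chr9:68653536-68653835 (plus strand) for Rora.
Tbx21: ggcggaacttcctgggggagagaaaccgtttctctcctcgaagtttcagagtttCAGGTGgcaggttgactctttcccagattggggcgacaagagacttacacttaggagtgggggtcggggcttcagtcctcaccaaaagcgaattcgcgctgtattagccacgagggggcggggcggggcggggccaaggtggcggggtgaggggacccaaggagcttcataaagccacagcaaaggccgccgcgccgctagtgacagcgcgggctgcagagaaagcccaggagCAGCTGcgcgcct
Id2: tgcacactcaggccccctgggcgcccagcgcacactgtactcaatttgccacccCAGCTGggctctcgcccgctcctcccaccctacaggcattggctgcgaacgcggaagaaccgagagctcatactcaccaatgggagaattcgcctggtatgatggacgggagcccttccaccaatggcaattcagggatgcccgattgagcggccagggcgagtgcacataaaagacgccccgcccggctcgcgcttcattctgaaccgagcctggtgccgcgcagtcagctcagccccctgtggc
Rora: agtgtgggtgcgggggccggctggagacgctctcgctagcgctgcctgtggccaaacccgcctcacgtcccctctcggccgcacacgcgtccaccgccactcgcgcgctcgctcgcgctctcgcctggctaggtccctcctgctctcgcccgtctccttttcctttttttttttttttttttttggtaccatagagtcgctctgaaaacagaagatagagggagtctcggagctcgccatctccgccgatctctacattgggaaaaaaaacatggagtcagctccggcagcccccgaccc
The Tbx21 window held 2 E-boxes, the Id2 window 1 and the Rora window 0, as did the Id3 window. Of the 32851 promoters of this length in the table, 72.3% held at least 1, so a match is common. The RUNX motif TGTGGT, searched on both strands, was in 16.8% of all promoters and in none of these 3 windows. No RUNX match in the promoters of the 9 factors overlapped an E-box.

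Eomes was low throughout. Tfh WT libraries held 1.61 to 3.81 CPM (median 2.22), Tfh KO 1.11 to 4.34 CPM (median 3.27), non-Tfh WT 2.37 to 3.62 CPM (median 3.17) and non-Tfh KO 1.66 to 4.51 CPM (median 3.48). In GC B cells the median was 0 in both genotypes and no library passed 0.213 CPM. The non-GC B libraries were split. WT replicates 4 and 5 held 4.11 and 3.65 CPM, as much as the T cells, whereas WT replicates 1, 2 and 3 held 0.146, 0.0314 and 0.0264 CPM. KO replicate 2 held 2.37 CPM and replicate 4 held 0.855 CPM, against 0 and 0.166 CPM in replicates 1 and 3. The same libraries carried genes of NK cells, a lineage in which Eomes is a known factor. Summed over the 6 NK cell and innate lymphocyte markers, WT replicates 4 and 5 and KO replicates 2 and 4 held 35.0, 17.7, 14.8 and 15.8 CPM. The other 5 held 0.760, 1.26, 0.528, 2.66 and 6.04 CPM. Klrk1 was the most abundant gene of the list in each of the 4 higher libraries, at 12.1, 6.10, 5.61 and 4.64 CPM. Ncr1 was at 5.81, 2.58, 2.89 and 4.06 CPM there, at 0.831 CPM in KO replicate 3 and at 0 in the remaining 4. Cd8a and Cd8b1 together held 8.67 and 6.79 CPM in WT replicates 4 and 5 and 1.96 and 5.56 CPM in KO replicates 2 and 4, and Cd3e was at most 0.930 CPM in any of the 9. The part of these markers in the Eomes level was not tested.

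**Figure D2:**
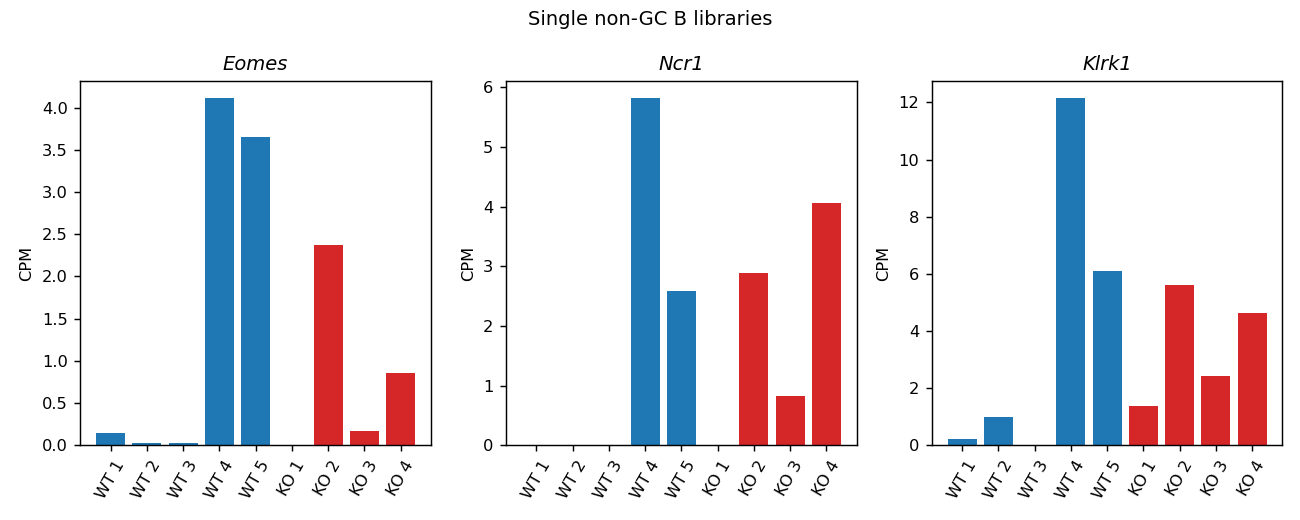
CPM of Eomes, Ncr1 and Klrk1 (vertical axes, linear, from 0) in each of the 9 non-GC B libraries (horizontal axis), blue for WT and red for S1PR4 KO. Eomes reaches 4.11 and 3.65 CPM in WT 4 and WT 5, where Ncr1 is at 5.81 and 2.58 CPM.

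Runx3 was expressed in all 8 groups. Mean levels fell in order from 53.0 CPM in non-Tfh KO through non-Tfh WT, non-GC B WT, Tfh WT, Tfh KO and non-GC B KO to 33.0 CPM in GC B WT and 26.5 CPM in GC B KO. Every neighbouring pair in that order overlapped. In Tfh KO replicates 3 and 6 were the lowest, at 27.9 and 32.0 CPM, while the other 4 held 40.9 to 51.4 CPM.

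Gata3 was a T cell gene in these data. It ranged from 102 to 131 CPM in Tfh WT (median 119), from 108 to 128 CPM in Tfh KO (median 121), from 86.1 to 114 CPM in non-Tfh WT (median 90.2) and from 88.1 to 107 CPM in non-Tfh KO (median 95.0). The 4 T cell groups each overlapped the next and none overlapped a B cell group. No B cell library exceeded 1.19 CPM, or 37 counts.

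Rora was a T cell gene as well, and highest in Tfh cells. Tfh WT libraries held 108 to 144 CPM with a median of 124, and Tfh KO libraries 74.1 to 117 CPM with a median of 95.7. Non-Tfh WT libraries held 17.6 to 40.0 CPM (median 25.6) and non-Tfh KO libraries 16.2 to 35.6 CPM (median 25.4). No Tfh library overlapped a non-Tfh library, and B cell libraries reached at most 0.395 CPM, and at most 12 counts in any library. The gene covers chr9:68653786-69388246 on the plus strand.

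Of the CD4 lineage factors, Zbtb7b stood at 42.3 to 55.3 CPM in Tfh WT, 36.7 to 49.1 CPM in Tfh KO, 52.3 to 65.5 CPM in non-Tfh WT and 58.1 to 69.7 CPM in non-Tfh KO. B cells also held transcripts of it, at a mean of 13.4 ± 0.823 CPM (SD, n = 5) in non-GC B WT and 4.17 ± 1.18 CPM (SD, n = 6) in GC B WT. The T cell, non-GC B and GC B groups formed 3 steps that did not overlap. Runx1 was highest in non-GC B cells, with means of 60.6 CPM in KO and 60.2 CPM in WT, and lowest in GC B cells, with means of 29.8 CPM in WT and 28.9 CPM in KO. The T cell groups lay between, from 53.3 CPM in Tfh WT to 43.8 CPM in non-Tfh WT, and no T cell library was as low as a GC B library.

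Id2 and Id3 behaved unlike each other. Id2 means were 75.8 CPM in Tfh WT, 75.1 CPM in non-Tfh KO, 68.7 CPM in non-Tfh WT and 62.3 CPM in Tfh KO, then 26.1 and 22.6 CPM in GC B WT and KO, and 5.42 and 4.51 CPM in non-GC B KO and WT. Tfh KO reached down to 28.4 CPM and overlapped GC B WT. Non-GC B libraries lay at 6.84 CPM or less and did not overlap the GC B libraries. Among these, WT replicates 4 and 5, which carried genes of NK cells, held 6.84 and 5.96 CPM of Id2 against 2.45 to 3.71 CPM in WT replicates 1, 2 and 3, and KO replicates 2 and 4 held 5.42 and 6.42 CPM against 5.22 and 4.63 CPM. The part of the NK cell markers in the Id2 level was not tested. Id3 was at 79.9 CPM or more in every library, and its means ran from 237 CPM in non-GC B KO to 121 and 115 CPM in the 2 non-Tfh groups. Per kilobase of merged exons Id3 was the most abundant of the 9 factors in each group, at a mean level of 117 CPM per kb in Tfh WT. Id2 and Gata3 followed there at 31.1 and 29.3 CPM per kb, and Eomes was lowest at 0.588 CPM per kb.

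The first comparison asked how Tfh cells differ from the CD4+ cells outside that gate. Genes were called at an adjusted p under 0.05 over all genes tested (edgeR quasi-likelihood test, Benjamini-Hochberg) and a fold change over 1.5. In WT, 43.2% of the 13481 genes tested were called, and 3 of the 9 factors were: Rora, Tbx21 and Id3, all higher in Tfh cells. Rora was 4.24-fold higher (log2 fold change 2.08 ± 0.17 SE, adjusted p = 5.20e-08). Id3 was 1.76-fold higher (0.81 ± 0.10 SE, adjusted p = 4.77e-06), with no overlap between the groups, though the share of all genes without overlap was not counted. Tbx21 was 2.11-fold higher (1.08 ± 0.39 SE, adjusted p = 0.0232), although its groups overlapped. Gata3 and Runx1 were slightly higher and Zbtb7b slightly lower, with log2 fold changes of 0.26, 0.23 and -0.35 that passed the adjusted p but not the fold threshold. Runx3, Eomes and Id2 gave -0.19, -0.38 and 0.09 and did not pass either. In bulk RNA a larger share of cells with a transcript and more of it in each cell cannot be told apart.

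In S1PR4 KO mice 43.4% of 13390 genes were called in the same contrast, with 4 of the 9 factors. Rora was 3.79-fold higher in Tfh cells (log2 fold change 1.92 ± 0.17 SE, adjusted p = 2.45e-07), Tbx21 1.90-fold higher (0.92 ± 0.32 SE, adjusted p = 0.0200) and Id3 1.59-fold higher (0.67 ± 0.18 SE, adjusted p = 0.00443). Gata3 (0.30) and Runx3 (-0.43) passed the adjusted p but not the fold threshold. Zbtb7b was 1.53-fold lower, at -0.62 ± 0.07 SE (adjusted p = 4.34e-06). Its Tfh and non-Tfh libraries did not overlap in KO and did in WT, but the interaction of genotype and population was not past the threshold (log2 -0.29 ± 0.11 SE, adjusted p = 0.405). Tbx21 kept a fold change over 1.5 but had an adjusted p over 0.05 when certain libraries were left out. Without replicate 3 of non-Tfh WT it was at log2 0.94 in WT (adjusted p = 0.0508), and without replicate 1 or 4 of Tfh KO at 0.76 or 0.82 in KO (0.0633 and 0.0523). Without replicate 4 of non-Tfh WT, the library low in Pdcd1 and Foxp3, it was at 0.86 in WT and still called (adjusted p = 0.00846). Id3 in KO fell below the fold threshold, at log2 0.55, 0.56 or 0.57, without replicate 3 or 6 of Tfh KO or replicate 4 of non-Tfh KO.

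**Figure D3:**
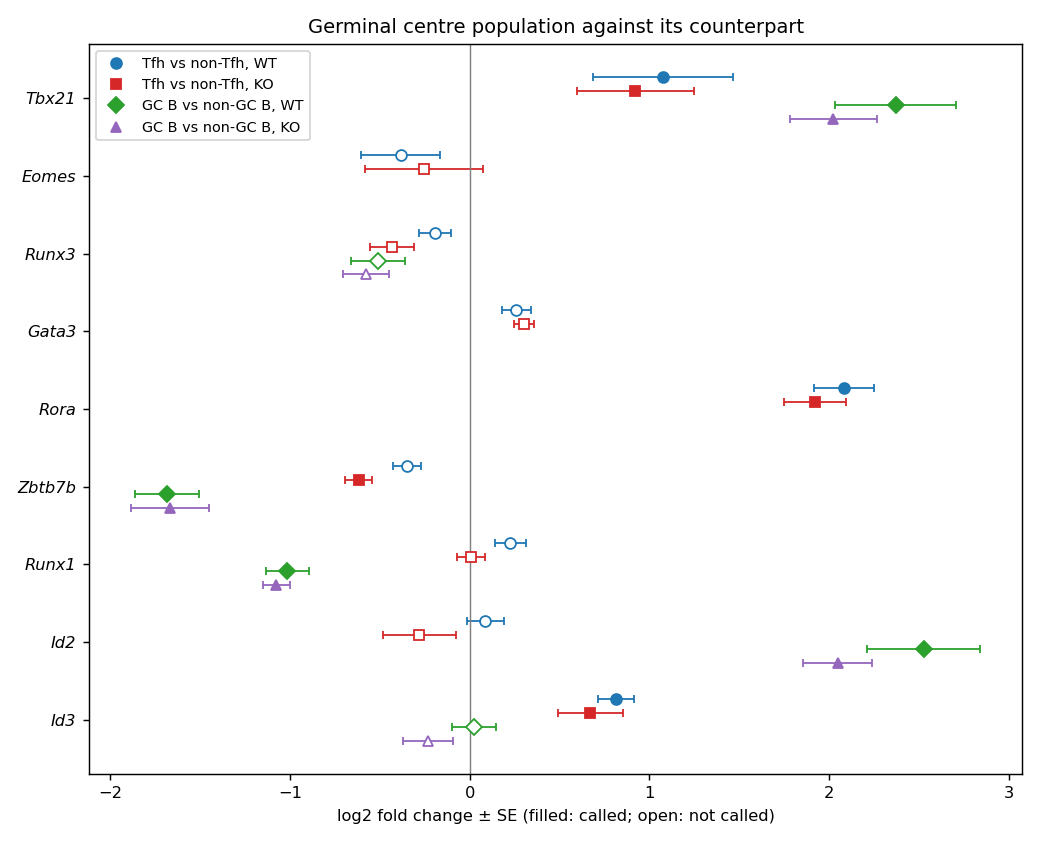
Log2 fold change with its SE (horizontal axis) of each factor in Tfh against non-Tfh cells and in GC B against non-GC B cells, in WT and KO, with filled symbols for called factors, open ones for those not called and none for those not tested. Rora stands at 2.08 and 1.92 in T cells, and Id2 at 2.53 and 2.05 in B cells.

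Marker lists differed in the same contrast. Of the 6 markers of naive and central memory T cells, 6 were lower in Tfh cells in WT and 6 in KO, with median log2 fold changes of -1.84 and -2.05. They summed to 1412 to 1766 CPM in Tfh WT against 6726 to 7774 CPM in non-Tfh WT, and to 1031 to 1404 CPM in Tfh KO against 5857 to 6389 CPM in non-Tfh KO, with 0 of the 6 genes at 0 in any T cell library. Of the B cell markers summed above, 11 of 12 tested were higher in Tfh WT and 6 of 9 in Tfh KO. Plasma cell markers were higher in 5 of 6 tested in WT and 6 of 6 in KO, with sums of 244 to 614 CPM against 106 to 159 CPM and of 202 to 239.6 CPM against 119 to 198 CPM, most of it Xbp1. Myeloid and dendritic cell markers were higher in 5 of 8 tested in WT and 4 of 7 in KO, with sums of 27.1 to 87.0 CPM against 14.6 to 42.5 CPM and of 16.2 to 437 CPM against 12.0 to 34.9 CPM. Lyz2 was the most abundant of these in each Tfh library, while S100a9 was at 0 in Tfh WT and S100a8 at 0 in Tfh KO. Of the NK cell and innate lymphocyte markers 1 of 3 tested was higher and 1 lower in each genotype, with sums of 36.3 to 78.2 CPM in Tfh WT against 5.90 to 15.4 CPM and of 26.5 to 46.4 CPM in Tfh KO against 7.98 to 13.3 CPM. Klrb1c was the most abundant of them in each Tfh library and Klrd1 in each non-Tfh library, Ncr1 reached at most 0.454 CPM in any T cell library, and Klra8 was at 0 in Tfh cells. GC B markers were higher in 5 of 5 tested in WT and 4 of 4 in KO, with medians of 4.09 and 3.08. They summed to 400.3 to 459 CPM against 76.2 to 93.8 CPM in WT and to 414 to 460.0 CPM against 74.5 to 133 CPM in KO, with the proliferation gene Mki67 most abundant in each Tfh library and Fas in each non-Tfh library. Regulatory T cell markers were higher in 2 of 5 in each genotype, Ctla4 and Ikzf2, with sums of 518 to 908 CPM against 332 to 575 CPM in WT and of 419 to 916 CPM against 494.5 to 887 CPM in KO. The part of these markers in the Tfh results was not tested.

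The programmes that these factors are known for were also described. Of all genes tested, 43.2% were called in this contrast in WT, 3079 higher and 2745 lower, and 43.4% in KO, 2985 higher and 2824 lower, and the count of each list stands beside that background. Of the 13 genes of the Th17 programme tested in WT, 11 were higher in Tfh cells and 1 was lower, with a median log2 fold change of 2.26 against 2.54e-04 over all genes tested. Il1r1, a receptor of IL-1, was at 219 ± 31.1 CPM (SD, n = 6) in Tfh and 2.89 ± 1.83 CPM in non-Tfh cells. The cytokine genes Il22 and Il17f were at 47.6 ± 25.7 and 27.5 ± 11.7 CPM in Tfh cells, against 0.675 ± 0.550 and 1.52 ± 1.20 CPM. Il23r, the IL-23 receptor gene, had a log2 fold change of 3.58. In KO, 9 of 13 were higher and 1 lower, with a median of 1.52.

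The Th1 programme was mixed. In WT 11 of 20 genes were higher and 3 lower in Tfh cells, with a median log2 fold change of 1.07. The chemokine receptor gene Cxcr3 was at 207 ± 25.7 CPM (SD, n = 6) against 21.8 ± 7.01 CPM, and Bhlhe40 and Il12rb2 had log2 fold changes of 3.24 and 3.10. Prf1, which encodes the pore-forming protein perforin, went the other way, at 5.06 ± 1.19 CPM in Tfh and 109.8 ± 17.9 CPM in non-Tfh cells. In KO 9 of 19 were higher and 5 lower. Of the Th2 programme 9 of 15 genes were tested in WT, 5 higher and 2 lower, with a median of 2.02. Il4 rose from 0.135 ± 0.0902 to 10.6 ± 1.83 CPM, and Maf and Ccr4 had log2 fold changes of 3.91 and 2.76, whereas Il4ra, the IL-4 receptor gene, fell by 2.61 on the log2 scale. In KO 6 of 10 tested were higher and 2 lower.

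The lists of partners hold few genes. Of the E proteins and other Id genes, 2 of 4 tested were higher in Tfh WT and 0 lower, a share near the background of 43.2%: Tcf4 at 13.6 ± 2.45 against 4.54 ± 1.36 CPM, and Tcf12 at 144 ± 12.9 against 83.1 ± 2.63 CPM (SD, n = 6). Of 7 RUNX partners and corepressors 4 were higher and 2 lower. Cbfa2t3, Runx2 and Tle3 had log2 fold changes of 5.06, 2.30 and 0.82, and Tle1 one of -1.99. Of 9 genes of the CD4 and CD8 lineage choice 2 were higher and 4 lower: Myb and Tox at log2 1.83 and 1.29, and Satb1 and Cd8b1 at -1.29 and -0.81 among those that were lower.

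The same question was asked of GC B against non-GC B cells. Here 6 of the 9 factors had enough counts to be tested, and Gata3, Rora and Eomes did not. In WT 47.8% of 13324 genes were called, with 4 of the 6 factors. Id2 was 5.76-fold higher (log2 fold change 2.53 ± 0.31 SE, adjusted p = 1.34e-05) and Tbx21 5.17-fold higher (2.37 ± 0.34 SE, adjusted p = 4.51e-05) in GC B cells. Zbtb7b was 3.22-fold lower (-1.69 ± 0.18 SE, adjusted p = 3.35e-06) and Runx1 2.02-fold lower (-1.01 ± 0.12 SE, adjusted p = 9.74e-06). None of these 4 overlapped between the groups, but the share of all genes without overlap was not counted. Without the non-GC B libraries over 1 CPM of Ncr1, an alternative added after the data were seen, Id2 was at 3.02 in WT and at 2.18 in KO. The libraries left out were those with the most Id2 in each genotype, so a larger value followed from the choice. Runx3 was lower by less than the fold threshold, at -0.51 ± 0.15 SE (adjusted p = 0.00862), and Id3 was at 0.02 ± 0.12 SE (adjusted p = 0.875). In KO 48.2% of 13484 genes were called, again with Id2 (2.05 ± 0.19 SE), Tbx21 (2.02 ± 0.24 SE), Zbtb7b (-1.67 ± 0.22 SE) and Runx1 (-1.08 ± 0.08 SE), and Runx3 was at -0.58 ± 0.13 SE, just below the fold threshold. Runx3 passed it in 3 of 19 alternatives in WT, with -0.61 by total counts and -0.61 without GC B replicate 6, and in 9 of 18 in KO. In KO it reached -0.62 and -0.67 without GC B replicate 4 or 5, and -0.62, -0.60 and -0.59 without non-GC B replicate 1, 3 or 4.

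Marker lists differed in this contrast as well. Of the 7 plasma cell markers, 7 were higher in GC B cells in WT and 6 in KO, with median log2 fold changes of 3.88 and 4.73. They summed to 4032 to 9112 CPM in GC B WT against 425 to 762 CPM in non-GC B WT, and to 2068 to 18515 CPM in GC B KO against 468 to 561 CPM in non-GC B KO. Jchain was the most abundant of them in each GC B library and Xbp1 in each non-GC B library, and 0 of the 7 were at 0 in any GC B library. Myeloid and dendritic cell markers were higher in 5 of 8 tested and lower in 1 in WT, and higher in 4 of 9 and lower in 1 in KO. They summed to 112 to 319 CPM in GC B WT against 16.5 to 93.7 CPM in non-GC B WT, and to 117 to 236 CPM in GC B KO against 32.4 to 48.1 CPM in non-GC B KO, where Cd14 was at 0. Flt3 or Lyz2 was the most abundant of them in each GC B library. The 12 B cell markers were lower in GC B cells in 10 in WT and 9 in KO, with sums of 11181 to 18077 CPM against 21026 to 24071 CPM in WT. Naive and central memory T cell markers were lower in 5 of 6 tested in WT and 5 of 5 in KO, with medians of -2.13 and -2.85 and sums of 317 to 1492 CPM in GC B WT against 2987 to 3494 CPM and of 326 to 679 CPM in GC B KO against 3331 to 4292 CPM. NK cell and innate lymphocyte markers were lower in 0 of 4 tested in WT, with a median of -1.84, and in 4 of 4 in KO, with a median of -3.44. They summed to 0.848 to 6.09 CPM in GC B WT and 0.345 to 2.13 CPM in GC B KO, beside the non-GC B sums given with Eomes. The part of these markers in the results on Id2, Tbx21, Zbtb7b and Runx1 was not tested.

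Among GC B WT libraries, Tbx21 and Id2 were both highest in replicates 1 and 6, at 63.7 and 52.1 CPM for Tbx21 and 38.9 and 34.0 CPM for Id2. Both were lowest in replicates 2 and 3, at 23.7 and 18.4 CPM and at 14.6 and 19.5 CPM. In KO, replicate 1 held the lowest level of both, 20.6 and 14.03 CPM, but replicate 3, next lowest in Tbx21 at 31.5 CPM, held 25.0 CPM of Id2, within the 20.6 to 26.1 CPM of the other 4. Myeloid and dendritic cell markers summed to 213, 112, 135, 161, 193 and 319 CPM in WT replicates 1 to 6, highest where Tbx21 and Id2 were highest, with Lyz2 at 78.7 and 174 CPM in replicates 1 and 6 and at 25.7 and 32.8 CPM in replicates 2 and 3. In KO replicates 1 to 6 they summed to 117, 159, 156, 236, 154 and 159.5 CPM. Plasma cell markers summed to 5289, 9112, 5208, 4032, 4279 and 4536 CPM in WT replicates 1 to 6 and to 5818, 8619, 18515, 2068, 2469 and 2078 CPM in KO. The part of these markers in the levels of Tbx21 and Id2 was not tested.

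T and B cells of WT mice were compared outside and inside the germinal center response, where cell type and day cannot be told apart. Of 13669 genes, 38.9% were called between non-Tfh and non-GC B cells, with 5 of the 9 factors. Gata3, Rora, Id2 and Zbtb7b were higher in the T cells, the latter 2 by log2 3.87 ± 0.23 SE and 2.07 ± 0.08 SE, and Id3 was lower, at -0.78 ± 0.12 SE (adjusted p = 9.56e-05). Rora had 0 counts in 3 of the 5 non-GC B WT libraries, so its fitted fold change depends on the prior count and is not given. Eomes was at 0.88 ± 0.91 SE (adjusted p = 0.431) with an adjusted p from 3.75e-06 to 0.613 over the alternatives. It was called by limma voom, at 3.21. The adjusted p of 3.75e-06 came without the non-GC B libraries over 1 CPM of Ncr1, an alternative added after the data were seen. Those libraries, replicates 4 and 5, held 128 and 106 counts of Eomes, and replicates 1, 2 and 3 held 5, 1 and 1. That call therefore followed from the choice of libraries, and its log2 fold change of 5.38 rests on these few counts. Tbx21 was at -1.07 ± 0.44 SE, with an adjusted p of 0.0510 that lay on either side of the threshold among the alternatives, from 0.0192 to 0.138. It was below it in 7 of 19, among them those without replicate 1 or 4 of non-Tfh WT (0.0435 and 0.0334) and without replicate 5 of non-GC B WT (0.0447). Runx1, at -0.53 ± 0.11 SE, passed the fold threshold without replicate 4 of non-GC B WT, at -0.59. It also did so, at -0.63, without the libraries over 1 CPM of Ncr1, which were those with the least Runx1 in that group. Between Tfh and GC B cells 44.3% of 13719 genes were called, with 7 of the 9 factors. Tbx21 was 4.77-fold lower in Tfh cells (log2 -2.25 ± 0.30 SE, adjusted p = 1.33e-05), and Id2, Runx1 and Zbtb7b were higher by 1.53, 0.83 and 3.53. Gata3, Rora and Eomes were higher as well. Runx3 and Id3 were not called, at 0.48 and 0.12, and Runx3 passed the fold threshold, at 0.60, without replicate 6 of GC B WT.

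Loss of S1PR4 was compared with WT in each population. In Tfh cells 0.496% of 13495 genes were called and 0 of the 9 factors (edgeR). At an unadjusted p under 0.05 were 2 of the factors and 2586 of all genes tested. In non-Tfh cells 0.114% of 13197 genes were called and 0 of the 9 factors, with 1 factor and 1486 genes under an unadjusted 0.05. In GC B cells 0.0612% of 13070 genes were called and 0 of the 6 factors tested, with 0 factors and 540 genes under an unadjusted 0.05. In non-GC B cells 0.0537% of 13038 genes were called and 0 of the 8 factors tested, with 2 factors and 593 genes under an unadjusted 0.05. DESeq2 and limma voom also called 0 factors in each of these comparisons. At these shares of calls, a count of 0 among 9 genes says little about the factors as a set.

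Rora in Tfh cells came nearest. It was 1.29-fold lower in KO, at log2 -0.37 ± 0.10 SE (unadjusted p = 0.00172, adjusted p = 0.0656), with overlapping groups, and the adjusted p ranged from 0.00969 to 0.632 over the alternatives while the fold change stayed below 1.5. Zbtb7b in Tfh cells was at -0.18 ± 0.08 SE (adjusted p = 0.254) and Runx1 in non-Tfh cells at 0.19 ± 0.09 SE (adjusted p = 0.438). In non-GC B cells Id3 was at 0.34 ± 0.13 SE and Runx3 at -0.25 ± 0.11 SE, both with an adjusted p of 0.981. The widest errors were those of Gata3 and Eomes in non-GC B cells, at -1.29 ± 1.39 SE and -0.90 ± 1.45 SE, where a few libraries held most of the counts. For Gata3 the highest were WT replicates 4 and 5 (37 and 29 counts) and KO replicate 2 (23 counts), which carried NK cell genes. WT replicate 2, where Ncr1 was at 0, held 20 counts of Gata3. The part of the NK cell markers in the Gata3 value was not tested. Without replicate 2 of non-GC B KO, Gata3 and Eomes were at -3.18 and -2.21, and without replicate 1 at -0.88 and -0.48, the ends of their ranges on leaving out a library. KO replicates 1, 3 and 4 held 0, 4 and 2 counts of Gata3, so its value without replicate 2 rests on few counts. Eomes was at -0.55 without replicate 3 of non-GC B KO, and neither gene was called in any of these fits (edgeR). No gene of the 6 programme and partner lists was called in any genotype comparison.

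Markers of other cells differed between genotypes in the T cell groups. Of the plasma cell markers, 3 of 6 tested were lower in KO in Tfh cells, with a median log2 fold change of -1.61, and 1 of 6 in non-Tfh cells, with a median of -0.54. Those called in Tfh cells were Jchain at -3.64 ± 0.74 SE (adjusted p = 0.0380), Mzb1 at -4.35 ± 0.77 SE (0.0230) and Derl3 at -1.88 ± 0.40 SE (0.0445), and Mzb1 was the one called in non-Tfh cells, at -3.77 ± 0.63 SE (0.0160), all by edgeR. Jchain lay between 13.5 and 146 CPM in Tfh WT and between 0.0221 and 9.41 CPM in Tfh KO, with no overlap. The 12 B cell markers had a median of -2.12 in Tfh cells and the 7 tested in non-Tfh cells one of -0.69, with 0 called in either. Naive and central memory T cell markers had medians of -0.49 in Tfh and -0.26 in non-Tfh cells and the NK cell and innate lymphocyte markers one of -0.66 in Tfh cells, with 0 called in either list. The sums of the naive and central memory list did not overlap between genotypes in Tfh cells (1412 to 1766 CPM in WT against 1031 to 1404 CPM in KO) or in non-Tfh cells (6726 to 7774 CPM against 5857 to 6389 CPM), and those of the other 3 lists are given above. With the B cell markers as a covariate, Rora in Tfh cells was at -0.39 (adjusted p = 0.259) and Zbtb7b at -0.0452 (adjusted p = 0.920). The part of the plasma cell, naive and central memory T and NK cell markers in the Rora and Zbtb7b values was not tested. In GC B and non-GC B cells 0 markers of any list were called between genotypes.

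**Figure D4:**
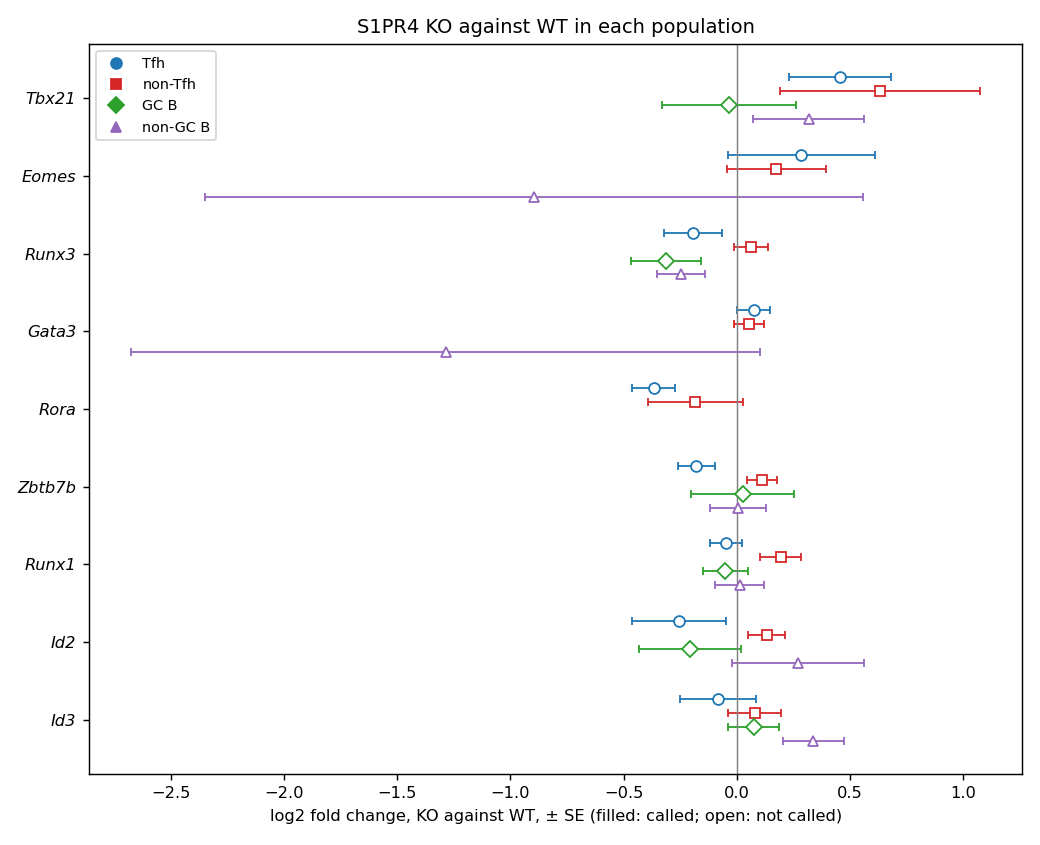
Log2 fold change with its SE (horizontal axis) of each factor in S1PR4 KO against WT cells of the 4 populations, with open symbols throughout, since no factor was called. Rora in Tfh cells lies at -0.37 ± 0.10 SE, and the widest bars belong to Eomes and Gata3 in non-GC B cells.

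The difference of the genotype effect between populations was tested directly. In T cells 0.0139% of 14401 genes and 0 of the 9 factors passed (edgeR). At an unadjusted p under 0.05 were 2 factors, Zbtb7b and Runx1, and 1325 of all genes tested. The genes that passed were 2, against 76 by DESeq2, 1 by limma voom and 10 with the replicate number as a block, with 0 of the 9 factors in each. In B cells 0% of 14490 genes passed, with 664 at an unadjusted p under 0.05, against 6 genes by DESeq2 and 0 by limma voom. Of the 8 factors tested in B cells 0 passed, and 0 were under an unadjusted 0.05.

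Among single Tfh libraries, replicates 3 and 6 of KO stood apart in several of the factors. Id2 was at 28.4 and 42.8 CPM there, against 71.8 to 79.7 CPM in the other 4 KO libraries and 65.9 to 97.1 CPM in WT. Id3 was at 272 and 259 CPM, against 144 to 176 CPM in the other 4, while WT replicate 1 also reached 277 CPM. Genes of the Tfh state were high in the same libraries: Bcl6 at 189 and 164 CPM, against 92.5 to 107 CPM, and Ascl2 at 31.0 and 27.04 CPM, against 5.91 to 17.1 CPM. Foxp3 was low, at 77.8 and 74.2 CPM against 132 to 171 CPM, and the 5 regulatory T cell markers summed to 488 and 419 CPM against 671 to 916 CPM. Replicate 6 also held 338 CPM of Lyz2, a myeloid gene, and 437 CPM over the 11 myeloid and dendritic cell markers, while replicate 3 held 16.2 CPM, the lowest of the 6. The Id2 difference between genotypes was at log2 -0.26 with all libraries, at -0.11 without KO replicate 3 and at -0.86 with the B cell markers as a covariate, the ends of its range, and was not called in any of the 20 alternatives (adjusted p from 0.126 to 0.726 over the alternatives). The part of these markers in the levels of Id2, Id3 and Runx3 was not tested.

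**Figure D5:**
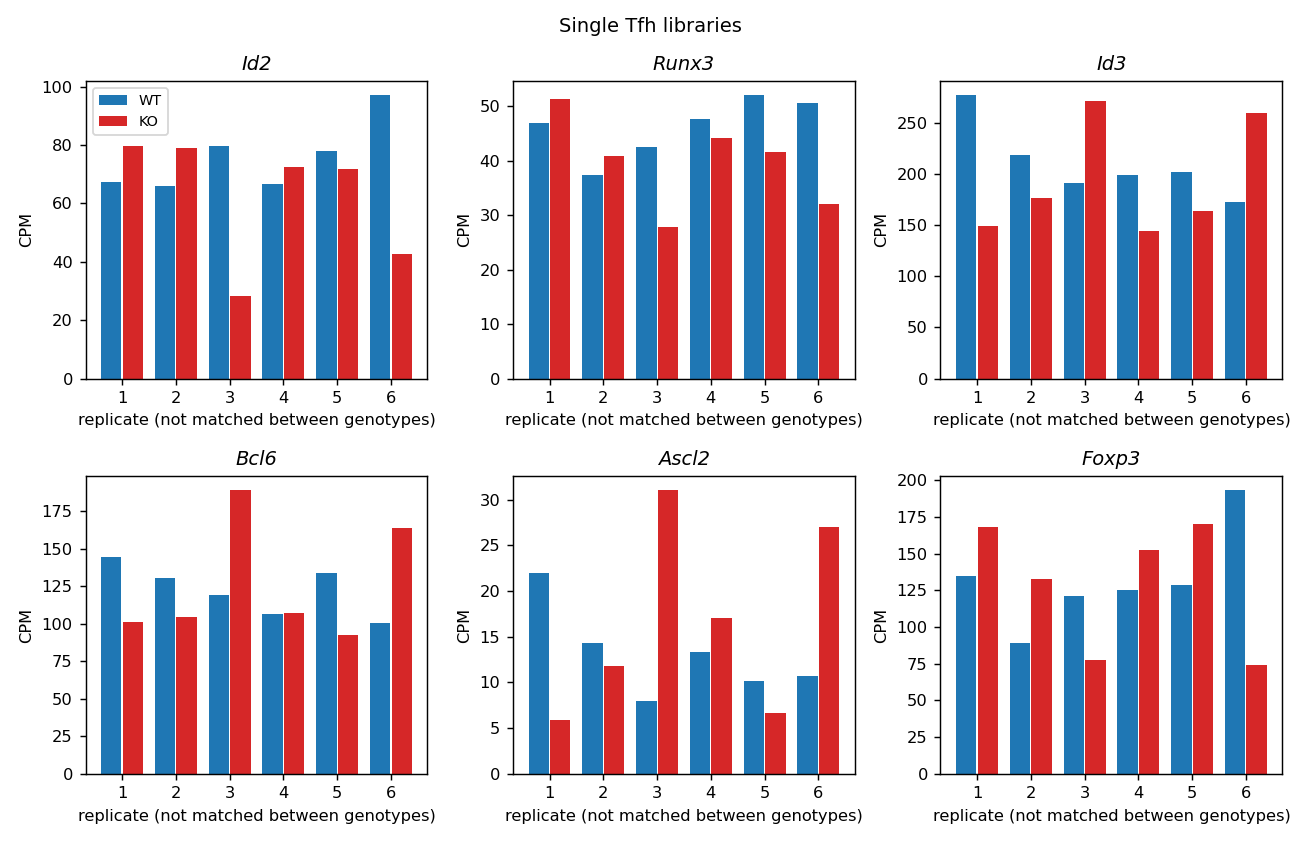
CPM (vertical axes, linear, from 0) of Id2, Runx3, Id3, Bcl6, Ascl2 and Foxp3 in each Tfh library, by replicate number (horizontal axis), blue for WT and red for S1PR4 KO. KO replicates 3 and 6 are low in Id2 at 28.4 and 42.8 CPM and high in Bcl6 at 189 and 164 CPM.

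The genes most like each factor were sought among 11640 genes over the 24 CD4+ T cell libraries, by Pearson's r of log2 CPM. These values are descriptions, since the libraries share groups and cell makeup. Rora had the closest companions, S100a6, Icos and Unc119b, at r of 0.99, 0.99 and 0.98. Zbtb7b followed with Adgrl1, Bicdl1 and Rnpepl1 at 0.95, 0.95 and 0.94, and then Id3 with Dctn2, Cabin1 and Cxxc5 at 0.92, 0.91 and 0.91. Gata3 went with Paqr4, Ppp2r1a and Fermt3 at 0.915, 0.905 and 0.904. Tbx21 went with Gjb2, Il2rb and Cass4 at 0.89, 0.89 and 0.88. Runx3 was closest to Pde8a, Cytip and Dbndd2 at 0.84, 0.84 and 0.83, and Id2 to Il1rl1, Trim16 and Ccrl2 at 0.83, 0.82 and 0.81. Runx1 was closest to Smg6, Tbc1d8b and Mfsd4a at 0.79, 0.78 and 0.78, and Eomes, the lowest in counts, to Prkag2, Gm9794 and Klf16 at 0.67, 0.66 and 0.66.

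After each group's mean was subtracted, so that differences between the groups no longer counted, Tbx21 went with Gjb2, Asb2 and Il12rb1 at 0.93, 0.92 and 0.90. Rora went with Myo1f, Il1r2 and Plekhb2 at 0.94, 0.91 and 0.91. Id2 went with Gm4956, Il1rl1 and D1Ertd622e at 0.86, 0.86 and 0.85, and Id3 with Tmem86a, Rgs10 and Fbxl6 at 0.83, 0.81 and 0.80. Zbtb7b was closest to Rinl, Ccdc88b and Plekhg2 at 0.84, 0.83 and 0.83, and Runx1 to Tbc1d8b, Nsg2 and Paqr7 at 0.84, 0.81 and 0.78. Runx3 was closest to Capn2, Gpld1 and Rrp1b at 0.82, 0.82 and 0.81, Gata3 to H2afx, Paqr4 and Ppp2r1a at 0.79, 0.79 and 0.77, and Eomes to Isg20l2, Trappc10 and Zc3h12a at 0.80, 0.78 and 0.77.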

How the data were processed

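Sorted lymphocytes of 8 groups were analysed from the gene table the authors deposited. Its values are expected counts, which, per the submitters' processing notes, the authors made with cutadapt 2.10, STAR 2.5.3 and RSEM 1.3.0 on mm10. Of the values, 8.83% are not whole, and all were rounded. Gene lengths and positions came from GENCODE M21, which is not the release that the study's methods name. It holds the symbols of 55423 of the 55450 genes of the table, and lengths and positions may differ from those used in the counting. Libraries were made with a stranded kit, while the strand setting of the counting is not given in the sources used here. All factors except Tbx21, Id2 and Id3 overlap a gene on the other strand, and reads of such pairs cannot be told apart if the counting did not use strand. Gata3 also overlaps 9230102O04Rik on its own strand, where strand does not separate reads.

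Each comparison used the groups compared, filterByExpr, TMM scaling and edgeR 4.0.16 (R 4.3.3). Alternatives were DESeq2 1.42.0, limma 3.58.1, other scalings, no filter, all groups, a replicate block, a B cell marker covariate and each library left out. Log2 CPM used a prior count of 2. The SE of a log2 fold change was its size divided by the square root of the F statistic. The fits were also run on simulated data, and no result given here rests on that run. Replicate libraries differed by more than sampling noise. The study gives 6 WT and 6 S1PR4 KO mice for the sorts of GC B and Tfh cells. No label ties a library to a mouse, so p-values measure the spread between these libraries. The factors and lists were chosen with earlier results of these data known. Named list genes passed both thresholds in Tfh against non-Tfh WT with a mean of at least 1 CPM, at most 4 a list by size of change. The 3 genes most like each factor were named.

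Replicate numbers paired Tfh with non-Tfh libraries in KO, where the deviations of all 6 pairs correlated above 0.1, from 0.119 to 0.185. The main fit of Tfh against non-Tfh KO did not use this pairing and called 5809 genes, against 5763 with the replicate block.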

Additional observations from a re-analysis of the deposited data

Results flagged for a closer look

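In 5 of 72 groups of libraries a factor had a library far from the others of its group. Chance gives about 1 in 20, a rate that cannot be applied to groups near 0 counts such as the 2 in non-GC B KO. Runx3 was at 63.5 CPM in replicate 1 of non-Tfh KO, against 50.3 to 51.3 CPM in the other 5. That library was also the highest of its group in Tbx21 (11.5 against 2.67 to 7.37 CPM), Rora (35.6 against 16.2 to 29.5 CPM), Id2 (87.1 against 63.5 to 77.3 CPM), Pdcd1 (57.8 against 12.8 to 31.4 CPM), Prdm1 (25.2 against 10.7 to 14.8 CPM) and Foxp3 (243 against 136 to 208 CPM), and the part of these markers in its Runx3 level was not tested. Gata3 was at 113.7 CPM in replicate 1 of non-Tfh WT, against 86.1 to 94.1 CPM. That library was also the highest of its group in Pdcd1 (30.4 against 7.57 to 27.2 CPM) and Mki67 (22.7 against 4.90 to 17.1 CPM). Among the factors, Tbx21, Id2, Id3 and Zbtb7b were highest there too, at 5.81, 80.6, 132 and 65.5 CPM. The part of these markers in its Gata3 level was not tested. Id3 was at 267 CPM in replicate 3 of non-GC B WT, against 151 to 183 CPM. That library was also the highest of its group in Jchain (257 against 13.6 to 76.2 CPM) and Bcl6 (169 against 110 to 121 CPM). Runx1 was highest there as well (71.3 against 48.1 to 63.4 CPM), and the part of these markers in its Id3 level was not tested. In non-GC B KO, Gata3 was at 0.737 CPM (23 counts) in replicate 2, against at most 0.111 CPM. Rora was at 0.166 CPM (6 counts) in replicate 3 there, against 0 in the others, so that any count above 0 would have stood apart. KO replicate 2 carried genes of NK cells, with Ncr1 at 2.89 CPM, as did KO replicate 4, where Gata3 was at 0.0611 CPM. In WT, Gata3 was at 1.19 and 0.999 CPM in replicates 4 and 5, which carried these genes too. It was at 0.628 CPM in WT replicate 2, where Ncr1 was at 0, and at 0 in WT replicates 1 and 3. The part of these markers in the Gata3 level was not tested.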

How the results depend on the processing

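No factor was called in any of 136 alternatives over the 6 genotype comparisons and interactions. Of 97 fold changes of factors, 22 changed sign in at least 1 alternative. These made 85 pairs of a fold change and an alternative, 61 of them on leaving out a library, and 0 passed the thresholds after that; the cause was not tested. With total counts as the scaling, Runx1 in Tfh against non-Tfh KO was at -0.0725, Id3 in GC B against non-GC B WT at -0.0664, and Zbtb7b between genotypes in GC B at -0.0145 and in the B cell interaction at -0.0149. That scaling moved the median of all genes in non-Tfh against non-GC B to log2 0.14. With all 8 groups in one fit, Runx1 and Id3 in the same contrasts were at -0.00702 and -0.0404. With the B cell covariate, Id3 and Runx1 between genotypes in Tfh were at 0.26 and 0.0321, and Eomes, Runx3 and Gata3 in non-Tfh at -0.0403, -0.0246 and -0.0374. With limma voom, Zbtb7b and Tbx21 in GC B were at -0.00454 and 0.0358, and Zbtb7b and Gata3 in the B cell interaction at -0.00238 and -0.0301. Without the non-GC B libraries over 1 CPM of Ncr1, an alternative added after the data were seen, Id3 in GC B against non-GC B WT was at -0.0220, Zbtb7b, Runx1 and Tbx21 between genotypes in non-GC B at -0.00232, -0.0102 and -0.0149, and Runx3 in the B cell interaction at 0.0703.

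Leaving out 1 library at a time gave these ranges. Runx1 in Tfh against non-Tfh KO ran from -0.0350 to 0.0374, Id3 in GC B against non-GC B WT from -0.0464 to 0.17 and Runx3 in non-Tfh against non-GC B from -0.00579 to 0.10. Between genotypes, Id3 in Tfh ran from -0.21 to 0.0118, Zbtb7b in GC B from -0.0722 to 0.19, Tbx21 in GC B from -0.19 to 0.15, and Zbtb7b and Runx1 in non-GC B from -0.0654 to 0.0712 and from -0.0630 to 0.0688. In the T cell interaction Gata3 ran from -0.0333 to 0.0666, Eomes from -0.0352 to 0.28 and Tbx21 from -0.34 to 0.13. In the B cell interaction Zbtb7b ran from -0.0614 to 0.18, Gata3 from -0.65 to 2.03, Runx3 from -0.14 to 0.0513 and Runx1 from -0.12 to 0.0135. The Gata3 values there rest on few counts, with an SE of 3.80 when all libraries were used.

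Counts of called genes moved more. In Tfh KO against WT (67) they were 191 with DESeq2, 153 with all 8 groups, 10 with the B cell covariate and 15 (without WT replicate 2) to 117 (without KO replicate 3) on leaving out a library. In non-Tfh (15) they were 56 with DESeq2 and 11 to 27 (without WT replicate 6). In GC B (8) DESeq2 gave 14. In non-GC B (7) they were 16 with DESeq2, 25 with all groups and 4 without the libraries over 1 CPM of Ncr1. In the T cell interaction (2) they were 1 with total counts, 76 with DESeq2, 1 with limma voom and 0 to 6 on leaving out a library. In the B cell interaction (0) they were 6 with DESeq2, 5 with all groups, 5 without the libraries over 1 CPM of Ncr1 and 0 to 1 on leaving out a library. In GC B against non-GC B KO, 7 factors were called with all 8 groups in one fit, against 4, while 7549 genes were called against 6498. Of the factors tested in the main fit only Runx3 was added, at -0.64. The rest came from Eomes, Gata3 and Rora, which had too few counts in B cells to be tested in the main fit.

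The replicate block, which treats libraries of the same number as paired, changed the T cell interaction from 2 to 10 genes and Tfh KO against WT from 67 to 46. Among fold changes of factors, it moved Runx3 in GC B against non-GC B past the fold threshold, at -0.63 in WT and -0.64 in KO, and turned Tbx21 between genotypes in GC B to 0.0617, Eomes and Zbtb7b in non-GC B to 0.42 and -0.0188, and Eomes in the B cell interaction to -0.58. Apart from KO T cells, pairing by number was less clear: 2 of 6 WT T cell pairs, 2 of 5 WT and 0 of 4 KO B cell pairs correlated above 0.1. The library of the same number was the best match for 3 of 6 in Tfh WT, 3 of 5 in GC B WT and 1 of 4 in GC B KO, against 6 of 6 in Tfh KO.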
